A study of Mus musculus with 13 samples.

Results

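The leukemia stem cell (LSC) library of a mouse MLL-AF10 leukemia was compared with the library of normal granulocyte-monocyte progenitors (GMP), gene by gene. The comparison takes 2 of the series' 13 mRNA sequencing libraries, and no other library stands behind either group. Per the labels, GMP were progenitors from wild-type (WT) bone marrow, and LSC were tumor cells of the leukemia, also from bone marrow. A further pair of LSC libraries is given side by side with these: the untreated 0 h samples of a drug time course. Per the labels, the leukemia cells were cultured in RPMI medium with serum and WEHI-conditioned medium, a source of interleukin 3. The labels do not say whether the single LSC library came from such a culture. Strain, age, sex, sorting gates, any clone and how the fusion gene was introduced are not given in the sources used here. All 24328 genes of the files were taken, and ratios were read for the 7803 genes (32.1%) with at least 20 CPM in the library where they were higher. CPM are counts relative to library size, scaled here by TMM, which sets the bulk of genes equal between libraries. Each gene considered had at least 492 counts in its higher library.

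GMP are bone marrow progenitors that give rise to neutrophils and monocytes, and their cytoplasm fills with primary granules whose enzymes include myeloperoxidase and neutrophil elastase. MLL (gene Kmt2a) is a histone methyltransferase, and AF10 (gene Mllt10) binds DOT1L, which methylates histone H3 within transcribed genes. The fusion protein keeps the late HOXA genes and their partner MEIS1 on in cells that would otherwise silence them as they mature, and cells with features of GMP can then renew themselves as leukemia.

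With 1 library a group there is no test. Every ratio is a log2 ratio of CPM, LSC over GMP, and brackets hold its 95% exact counting interval, which covers counting error only and no difference between animals, cultures or preparations. The LSC library held 40468515 counts, the GMP library 24532508, and the 0 h libraries 9763276 and 8639937. The median ratio was 0.03, and 6433 genes (82.4%) lay within 2-fold. At least 2-fold higher in LSC were 814 genes (10.4%) and at least 2-fold lower 556 (7.13%). At least 4-fold higher were 268 genes (3.43%) and at least 4-fold lower 175 (2.24%). Counts of list genes given below stand against these shares of all genes. The balance of higher to lower depends on the scaling: 59.4% of the 2-fold differences were higher in LSC, but 48.7% under scaling by library size alone and 40.2% under the deposited transcript abundances (TPM, scaled for length). The median over all genes shifted by -0.13 and -0.24 under them, so list medians within that distance of 0 have no firm direction. Just outside the limit of 20 CPM, Pex16 was at 19.98 CPM in LSC, and just inside it Srrd was at 20.01 CPM in LSC. A gene silent in one library was considered only if the other carried it past that limit, so counts and medians over the genes of a list describe these libraries and are not support for a direction.

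The leukemic libraries and the GMP library differed in sex-linked RNA. Xist, the RNA that silences an X chromosome in female cells, was at 345 CPM in LSC against 0.0408 CPM (1 count) in GMP, and at 196 and 389.9 CPM in the 0 h libraries. The Y-linked genes Ddx3y and Uty were at 53.6 and 23.03 CPM in GMP and had 0 counts in LSC and in both 0 h libraries. Kdm5d and Eif2s3y were at 33.4 and 53.3 CPM in GMP, with 2 and 1 counts in LSC. Sex and leukemia cannot be told apart in any gene compared here. The 231 X-linked genes considered had a median ratio of -0.07, and the autosomes had medians from -0.12 to 0.27.

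Markers of other cell types were summed over each whole list. The summed level of the eosinophil, basophil and mast cell list was 1239.7 CPM in GMP, 177 CPM in LSC, and 671 and 814 CPM at 0 h, and 4 of 30 had 0 counts in GMP and 10 in LSC. T- and NK-cell markers summed to 433 CPM in GMP and 84.5 CPM in LSC, with Nkg7 at 427 and 75.97 CPM and Cd3g and Cd3e at 0 counts in both. Of these, 8 of 25 had 0 counts in GMP and 4 in LSC. B-cell markers summed to 36.5 CPM in GMP and 47.8 CPM in LSC. Erythroid markers summed to 305 and 125 CPM, of which Tfrc gave 189 and 117 CPM. Stromal and endothelial markers summed to 193 and 195 CPM, with Pecam1 at 104 and 23.03 CPM and Vcam1 at 56.2 and 143 CPM. Megakaryocyte markers summed to 107 and 87.2 CPM. At 0 h the B-cell list summed to 5.03 and 3.05 CPM and the erythroid list to 358 and 315 CPM. The stromal and endothelial list summed to 835 and 739 CPM there, and the megakaryocyte list to 559 and 563 CPM. The T- and NK-cell list summed to 91.6 and 54.2 CPM there. Of the B-cell markers 7 of 20 had 0 counts in GMP and 8 in LSC, of the erythroid markers 2 of 29 had 0 counts in GMP and 11 in LSC, and of the stromal and endothelial markers 9 of 24 had 0 counts in GMP and 3 in LSC. The part of these cells in the results was not tested, and in bulk RNA fewer cells of a type and less RNA per cell cannot be told apart.

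The markers of the leukemia were high: Hoxa9 was at 194 CPM in LSC against 14.6 CPM in GMP, and at 102 and 125 CPM at 0 h, a ratio of 3.73 [3.58, 3.89] for LSC. Meis1, whose protein binds DNA with HOXA9, was at 97.6 CPM in LSC, 7.50 CPM in GMP and 28.7 and 45.4 CPM at 0 h (3.70 [3.49, 3.92]). All 3 LSC libraries lay above GMP for both genes. Stem and progenitor genes had no common direction: of 16 considered, 5 were at least 2-fold higher, 5 lower and 6 within 2-fold, and the median of 0.40 turned to -0.03 with a limit of 10 CPM. Kit, the stem cell factor receptor, was at 358 CPM in LSC against 365 CPM in GMP, but lower at 0 h (164 and 162 CPM). Cebpa, a factor that GMP need to form, was at 210.2 and 205 CPM, and higher at 0 h (910.2 and 752 CPM). Fcgr3, an Fc receptor used to sort GMP, was at 401 and 362 CPM, with 315 and 298 CPM at 0 h. Fcgr2b, another Fc receptor gene, was higher in LSC, 237 against 104 CPM (1.18 [1.12, 1.25]), with 319 and 218 CPM at 0 h. Cd34, which marks GMP in the usual sort, was lower in LSC, 71.95 against 390.01 CPM (-2.44 [-2.50, -2.38]), but not in the 0 h libraries, which held 369.6 and 404 CPM.

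Of the 39 HOX genes in the files, the 5 that reached 20 CPM in LSC or GMP all lie in the HOXA cluster and were under that level in GMP. All 5 were at least 2-fold and 4 at least 4-fold higher, with ratios of 4.49 for Hoxa3, 6.05 for Hoxa5, 1.85 for Hoxa7, 3.73 for Hoxa9 and 9.73 for Hoxa10. Hoxa10 was at 69.1 CPM in LSC, 0.0815 CPM (2 counts) in GMP, and 118 and 154 CPM at 0 h. Walking along the cluster, Hoxa4 (4.53 CPM in LSC against 1.02 CPM in GMP) and Hoxa6 (10.3 and 0.245 CPM) were also higher in LSC at levels under the limit of 20 CPM. Past Hoxa10 the libraries parted. Hoxa11 had 4 counts in LSC and 0 in GMP but was at 90.8 and 132 CPM in the 0 h libraries, and Hoxa13 had 0 counts in all 4 libraries. Hoxa5 went the other way, 110.4 CPM in LSC against 12.3 and 15.4 CPM at 0 h.

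HOX cofactors and listed targets of MLL fusions differed gene by gene. Pbx3, another HOX cofactor, was at 74.4 CPM in LSC, 3.30 CPM in GMP and 27.6 and 29.6 CPM at 0 h (4.49 [4.17, 4.83]), while Pbx2 was at 88.9 CPM in LSC against 60.4 CPM in GMP (0.56). Tgif1, a homeobox repressor, was at 1.78 CPM in LSC against 35.2 CPM in GMP, with 51.5 and 45.99 CPM at 0 h. Of 25 MLL-fusion target genes considered, 10 were at least 2-fold higher and 2 lower, with a median of 0.41. Of those 10, 6 are already described above: Hoxa5, Hoxa7, Hoxa9, Hoxa10, Meis1 and Pbx3. Mecom, a stem cell transcription factor gene, was at 24.7 CPM in LSC, 0.693 CPM in GMP and 15.4 and 20.001 CPM at 0 h. The 2 lower targets were both higher at 0 h than in LSC: Bcl2, which blocks apoptosis, was at 11.4 CPM in LSC, 76.5 CPM in GMP and 71.7 and 68.6 CPM at 0 h, and Bahcc1 was at 2.13, 46.9, 144 and 159 CPM in the same order. Myb and Cdk6, which such leukemias depend on, differed little (-0.14 and -0.06).

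Both fusion partner genes were within 2-fold of GMP, and the fusion transcript was not analysed here. Kmt2a had a ratio of 0.003 [-0.07, 0.07] and Mllt10 a ratio of 0.50 [0.43, 0.57]. On one side of Mllt10, in RefSeq gene order on GRCm38, the 3 nearest genes were almost silent in GMP and on in LSC: Skida1 had 854 counts in LSC and 1 in GMP (23.03 and 0.0408 CPM), with 4.02 and 12.8 CPM at 0 h, Gm17762 had 113 counts in LSC and 4 in GMP, and A930004D18Rik had 484 counts in LSC and 1 in GMP. The next 4 genes on that side did not share this in the single LSC library. Nebl was at 5.69 CPM in LSC against 4.16 CPM in GMP and Arl5b at 4.94 and 8.15 CPM. Plxdc2 had 1 and 7 counts, and 4930515L03Rik had 0 counts in both. At 0 h, however, Nebl was above GMP, at 69.6 and 63.6 CPM, while Arl5b was at 5.73 and 6.33 CPM. On the other side the 3 nearest genes, Dnajc1, Commd3 and Bmi1, had ratios of 0.18, 0.01 and 0.25. These neighbours were looked up after the value of Skida1 was seen.

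**Figure D1:**
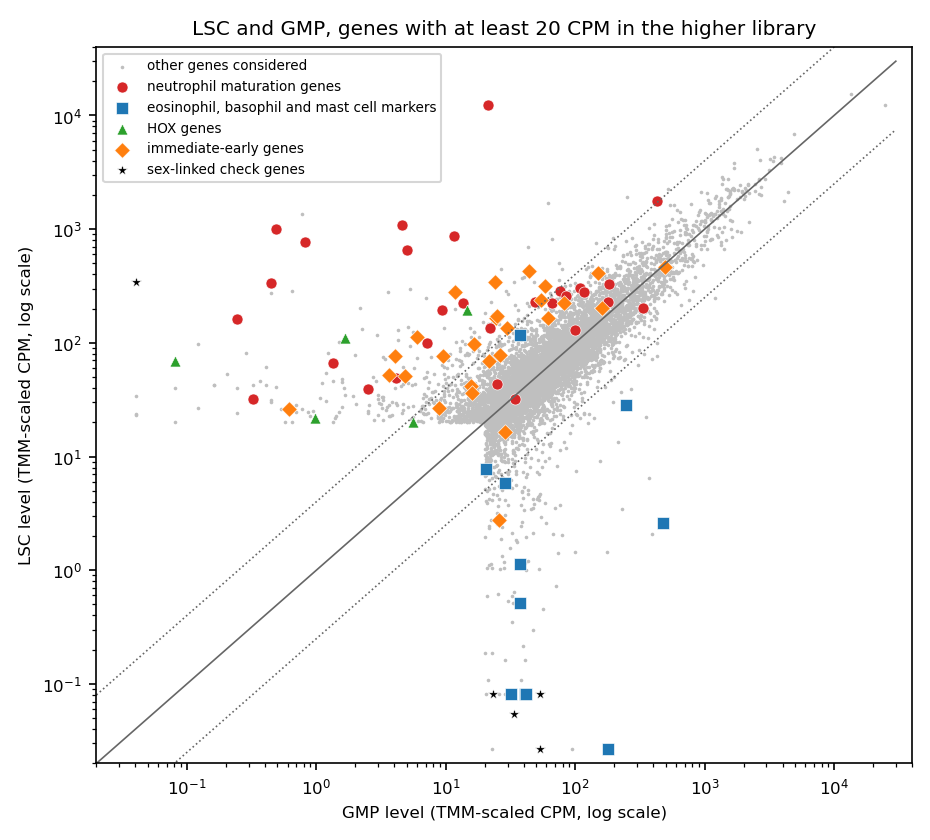
Each point is 1 of the 7803 genes considered, with its GMP level on the x axis and its LSC level on the y axis, both in TMM-scaled CPM on log scales; a gene with 0 counts is drawn at the floor of 3 counts. The solid line marks equal levels and the dotted lines 4-fold. Most neutrophil maturation and immediate-early genes lie above the line, the 5 HOX genes too, and 10 of 11 eosinophil, basophil and mast cell markers below it.

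Neutrophil genes of late granules were among the largest differences. Of 29 neutrophil maturation genes considered, 23 were at least 2-fold and 18 at least 4-fold higher in LSC and none was 2-fold lower, with a median of 3.59. At 0 h the list's medians relative to the same GMP library were 1.47 and -0.20. Chil3, a chitinase-like protein of myeloid cells, was at 12448 CPM in LSC, 21.1 CPM in GMP and 286 and 153 CPM at 0 h. Camp, the antimicrobial cathelicidin, was at 1088 CPM in LSC, 4.61 CPM in GMP and 17.1 and 0.678 CPM at 0 h. Olfm4, a protein of specific granules, was at 772, 0.815, 39.4 and 3.84 CPM in the same order. The single LSC library stood above all others in each of these, and the 0 h libraries differed between themselves, replicate 1 being higher.

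Not every gene of the list was lower at 0 h than in LSC. Ngp, another granule protein, was at 876 CPM in LSC, 11.6 CPM in GMP and 942 and 209 CPM at 0 h. Lcn2, which binds bacterial iron carriers, was at 224, 13.5, 229.6 and 180.1 CPM, and Padi4, which citrullinates histones in neutrophils, at 194, 9.33, 262 and 227 CPM. Ltf (lactoferrin) was at 99.1 CPM in LSC against 7.13 CPM in GMP and Mmp9 (gelatinase) at 39.1 against 2.49 CPM. Csf3r, the receptor of the neutrophil growth factor G-CSF, differed little (0.37 [0.31, 0.42]), and Anxa1 was at 203 CPM in LSC against 333 CPM in GMP. Stfa1 and BC100530, at 335 and 163 CPM in LSC, belong to a family of near-identical genes, so their levels are uncertain. The S100 genes S100a8 and S100a9, whose products form calprotectin, were at 1936 and 1697 CPM in LSC and 251 and 61.6 CPM in GMP. In the 0 h libraries S100a8 was below GMP, at 230 and 53.4 CPM, and S100a9 was at 431 and 79.7 CPM. By contrast S100a10 was at 2.10 CPM in LSC, 67.5 CPM in GMP and 41.7 and 38.9 CPM at 0 h.

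Of 16 primary granule genes considered, 11 were within 2-fold, a smaller share than the 82.4% of all genes considered. At least 2-fold higher was 1 and lower were 4, against 10.4% and 7.13% of all genes. Their median of 0.02 turned to -0.11 under library size and -0.20 under TPM. Mpo was at 12305 CPM in LSC against 24610.5 CPM in GMP, with 2538 and 1873 CPM at 0 h. Elane was at 6915 CPM in LSC, 4864 CPM in GMP and 667 and 519 CPM at 0 h, and Prtn3 (proteinase 3) at 4193, 3919.8, 824 and 637 CPM. For Elane and Prtn3 the single LSC library was near GMP and the 0 h libraries far below both. Per length, in TPM, Mpo was the most abundant gene of GMP (15914 TPM, against 6743 in LSC). Chil3 and S100a8 were the third and the fourth of LSC, at 11832 and 11251 TPM, against 23.5 and 1603 TPM in GMP.

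Promoters of these genes were read for letters that myeloid factors bind, in windows of 300 bases (250 before the start) of the RefSeq table on GRCm38.p6. TTGCNNAA, a C/EBP letter pattern, stood on either strand in 7 of 26 windows of the neutrophil maturation genes considered (26.9%) and in 10.8% of all 32851 windows. GAGGAAG, a PU.1 pattern, stood in 7 of those 26 windows (26.9%), in 6 of 16 windows of primary granule genes (37.5%) and in 13.6% of all windows. AGATAA, which the erythroid and eosinophil factors of the GATA family bind, stood in 10 of 27 windows of all eosinophil, basophil and mast cell markers (37.0%) and in 9 of 24 windows of all erythroid markers (37.5%), against 11.2% of all windows. Among the markers considered it stood in 1 of 10 and in 0 of 3 windows. Below are the 250 bases before the start of Chil3 (chr3:106167565-106167814, minus strand), the list gene with the highest LSC level. The same bases of Ngp (chr9:110419558-110419807, plus strand) and Olfm4 (chr14:80000052-80000301, plus strand) follow. Outside the Stfa family, these 2 had the highest ratios among genes whose 250 bases before the start hold the C/EBP and the PU.1 letters. For this choice only the first listed window of a gene was searched. Capitals mark either pattern on either strand, 2 C/EBP matches in Ngp, 1 PU.1 match in Olfm4 and none in Chil3. A match is a description of the letters and not a binding site.
Chil3: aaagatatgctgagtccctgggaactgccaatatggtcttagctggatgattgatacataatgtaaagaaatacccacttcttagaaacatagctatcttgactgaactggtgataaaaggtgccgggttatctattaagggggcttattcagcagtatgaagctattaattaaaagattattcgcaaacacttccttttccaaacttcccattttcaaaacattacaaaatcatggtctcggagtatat
Ngp: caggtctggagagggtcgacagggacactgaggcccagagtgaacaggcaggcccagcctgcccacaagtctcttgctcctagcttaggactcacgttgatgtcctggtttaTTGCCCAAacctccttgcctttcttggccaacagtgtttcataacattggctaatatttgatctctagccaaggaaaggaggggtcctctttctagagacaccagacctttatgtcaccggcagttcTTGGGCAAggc
Olfm4: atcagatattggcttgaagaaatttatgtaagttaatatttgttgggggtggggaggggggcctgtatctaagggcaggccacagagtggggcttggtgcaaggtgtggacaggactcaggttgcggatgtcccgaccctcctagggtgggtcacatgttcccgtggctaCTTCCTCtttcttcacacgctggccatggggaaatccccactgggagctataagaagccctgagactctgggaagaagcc

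Most markers of eosinophils, basophils and mast cells considered were lower in LSC. Of 11 considered, 10 were at least 2-fold and 9 at least 4-fold lower in LSC and 1 was higher, with a median of -6.19. Epx, eosinophil peroxidase, was at 0.0270 CPM (1 count) in LSC, 178 CPM in GMP and 23.9 and 62.04 CPM at 0 h. Prg2, the eosinophil major basic protein, was at 2.59 CPM in LSC, 473 CPM in GMP and 51.3 and 151 CPM at 0 h. Cpa3, the mast cell carboxypeptidase, was higher at 0 h than in GMP: 1.13 CPM in LSC, 37.8 CPM in GMP and 197 and 112 CPM at 0 h. Hdc, which makes histamine, was at 28.2, 247, 96.4 and 97.2 CPM. Ear1 and Ear6, eosinophil ribonucleases of a family with near-identical copies, had 0 counts in LSC and 40.7 and 41.99 CPM in GMP. Siglecf was the exception, at 116 CPM in LSC against 37.4 CPM in GMP. Of the 3 erythroid markers considered, Hba-a1 and Hbb-b1 (globins, with near-identical copies) were lower in LSC, at 1.21 against 43.1 CPM and 1.02 against 26.3 CPM.

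A second set of genes was nearly absent from the single LSC library and present in GMP and in the 0 h libraries. Zcchc11, which encodes an enzyme that adds uridines to RNA, had 1 count in LSC and was at 93.9 CPM in GMP and 52.97 and 57.3 CPM at 0 h. Nedd4, a ubiquitin ligase gene, was at 2.10 CPM in LSC, 391 CPM in GMP and 1009.6 and 972 CPM at 0 h. Tal1, a blood stem cell and erythroid transcription factor gene, was at 0.0809 CPM in LSC, 28.7 CPM in GMP and 64.4 and 54.1 CPM at 0 h. The 0 h libraries did not overlap the single LSC library in any of the 3, and were above GMP for Nedd4 and Tal1. The same order held for Cbx6, a polycomb reader (0.216 CPM in LSC, 39.3 in GMP, 135 and 121 at 0 h), for Aff3 (0.189, 22.9, 119 and 127 CPM) and for Ak4, a mitochondrial adenylate kinase (0.728, 70.8, 299 and 269 CPM). For these genes the single LSC library stood apart from the 0 h LSC libraries as well as from GMP. Of the genes next to Zcchc11, Prpf38a and Cc2d1b had ratios of 0.06 and -0.01, and Orc1, between them, -1.50.

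Other low genes were low in all 3 leukemic libraries. Ass1, which makes argininosuccinate on the way to arginine, was at 1.46 CPM in LSC, 176 CPM in GMP and 0.905 and 1.02 CPM at 0 h. Il6st, the signalling subunit shared by receptors of the interleukin 6 family, was at 2.05 CPM in LSC, 78.7 CPM in GMP and 0.101 and 0.226 CPM at 0 h. Smo, the transducer of hedgehog signals, had 4 counts in LSC (0.108 CPM) and was at 38.2 CPM in GMP. Maoa had 0 counts in LSC against 31.9 CPM in GMP, 394-fold lower with LSC set to the floor of 3 counts. Arhgap32, Tceal8 and Cnn3 were at 25.97, 41.1 and 47.4 CPM in GMP and under 1 CPM in each leukemic library. GMP stood apart from all LSC libraries for these genes.

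At the top of the ratios, several genes were on in the single LSC library and at or near 0 in GMP and at 0 h. Hpgd, which degrades prostaglandins, was at 1354 CPM in LSC against 0.774 CPM in GMP, with 0 counts in both 0 h libraries. Dmrtb1, a transcription factor gene of germ cells, was at 272 CPM in LSC against 0.448 CPM in GMP, and Penk, the enkephalin precursor, at 288 and 0.652 CPM, each with 0 counts in both 0 h libraries. Ptprt, a receptor phosphatase gene, had 0 counts in GMP and 98.03 CPM in LSC, 802-fold higher with GMP set to the floor. Slc13a5, a citrate transporter gene, was 219-fold higher, also taken at the floor. Both were near 0 at 0 h. Dsp, a desmosome protein, was at 299 CPM in LSC, 5.34 CPM in GMP and 0.503 and 0.339 CPM at 0 h, and Igf2bp3, an RNA-binding protein of fetal tissue, at 201, 2.16, 0.905 and 0.791 CPM. By contrast Olfml2b (42.9 CPM in LSC, 0.163 in GMP, 40.5 and 28.7 at 0 h), C130026I21Rik (61.8, 0.408, 129 and 111 CPM) and Greb1 (39.97, 0.245, 32.4 and 35.5 CPM) were on in every leukemic library and almost silent in GMP.

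**Figure D2:**
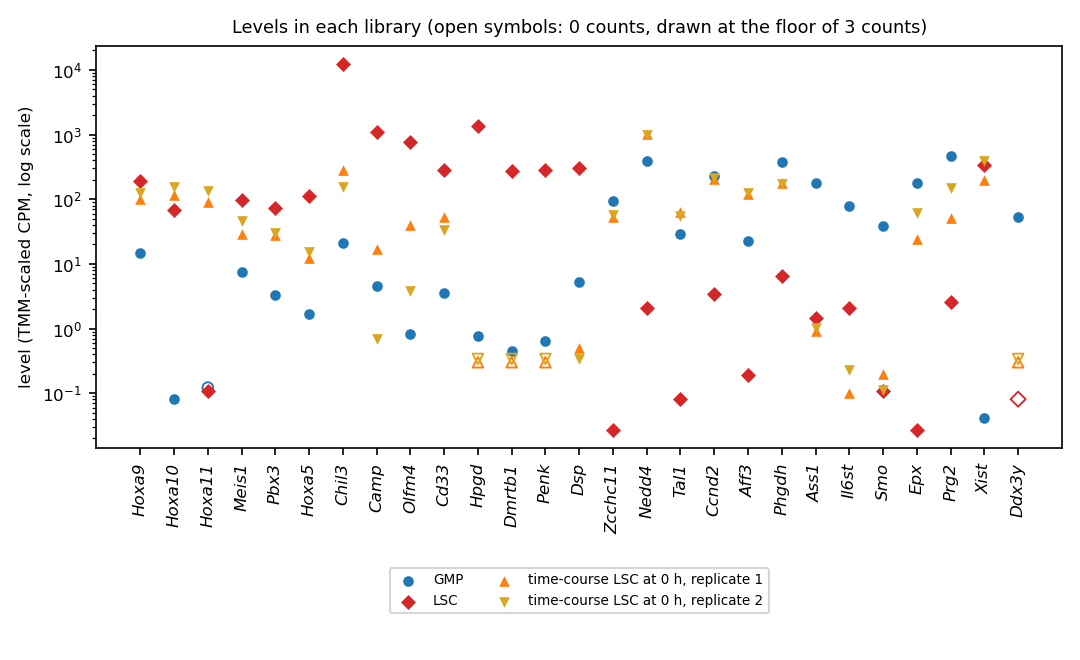
The y axis is the level in TMM-scaled CPM on a log scale and the x axis names 27 genes; each symbol is 1 library, and open symbols are 0 counts drawn at the floor of 3 counts. Hoxa9, Meis1 and Pbx3 are high in all 3 leukemic libraries, Hpgd, Dmrtb1 and Penk in the single LSC library alone, and Zcchc11, Nedd4, Tal1 and Ccnd2 are low in that library alone.

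Of 58 transcription factor genes of the myeloid program considered, 18 were at least 2-fold higher in LSC and 8 lower, with a median of 0.37. Gfi1, a repressor that favours neutrophils, was at 399.9 CPM in LSC against 135 CPM in GMP (1.57 [1.52, 1.62]). Spi1, encoding PU.1, was at 384 and 188 CPM (1.03), Cebpe, which drives secondary granules, at 198 and 58.6 CPM (1.76), and Id1, an inhibitor of helix-loop-helix factors, at 119 and 6.24 CPM (4.26). Irf8, which favours monocytes and dendritic cells, was at 22.4 CPM in LSC against 355 CPM in GMP, with 31.8 and 35.6 CPM at 0 h. Klf4, a monocyte factor, was at 2.75 CPM in LSC against 25.6 CPM in GMP and had 0 counts at 0 h. Irf8 and Klf4 were low in all 3 leukemic libraries, and so was Bcl11a, a lymphoid and stem cell factor (10.9 CPM in LSC, 33.8 in GMP, 0 counts at 0 h). The other lower genes were Tal1, given above, Satb1 (-3.50), Sox4 (-2.60), Irf5 (-2.42) and Mef2d (-1.12). Satb1 and Sox4 were above GMP at 0 h, at 74.6 and 77.3 CPM and at 48.8 and 48.4 CPM. Of the higher genes, Gfi1 was above GMP at 0 h too (271 and 229 CPM), while Spi1 was near GMP there (182 and 176 CPM).

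Monocyte and macrophage genes were mixed. Of 20 considered, 6 were at least 2-fold higher and 6 lower, and their median of -0.23 turned to 0.93 among genes of 50 CPM or more in either library. Ccr2, the receptor that brings monocytes out of the marrow, was at 23.5 CPM in LSC against 127 CPM in GMP, with 11.6 and 11.2 CPM at 0 h. Csf1r, the receptor of the macrophage growth factor M-CSF, was at 109.6, 192, 3.82 and 4.97 CPM in the same order. Cd68 and Adgre1 (F4/80) were higher in LSC, at 79.96 against 19.6 CPM and 97.2 against 14.02 CPM, with 24.9 and 26.7 CPM and 266 and 270.4 CPM at 0 h. Relative to the same GMP library, the list's medians at 0 h were -1.86 and -2.11. Against those medians, Emilin2, a matrix protein, was at 2.97 CPM in LSC, 54.1 CPM in GMP and 627 and 625 CPM at 0 h. Among 7 dendritic and MHC class II genes considered, H2-DMb1 was higher (1.37) and Bst2 lower (-1.10), beside Irf8.

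Of 29 cytokine receptor genes considered, 21 were within 2-fold, a smaller share than the 82.4% of all genes considered. At least 2-fold higher were 6, against 10.4% of all genes, and lower were 2, near the 7.13% of all genes. Their median was 0.28. Csf2ra, the binding subunit of the GM-CSF receptor, was at 311 CPM in LSC, 82.1 CPM in GMP and 0.201 and 0.113 CPM at 0 h. Il3ra, the binding subunit of the interleukin 3 receptor, was at 45.95, 26.5, 62.9 and 70.2 CPM, and Il18rap, of the interleukin 18 receptor, at 97.6, 25.9, 179.8 and 215 CPM. Csf2ra was thus high in the single LSC library and nearly absent at 0 h, and Il3ra and Il18rap were higher than GMP in all 3. Il17ra was lower in LSC (-1.91 [-2.03, -1.79]). Csf2rb2 and Csf2rb are near-identical neighbours, so the split of reads between them (1.85 and 0.25) is uncertain.

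**Figure D3:**
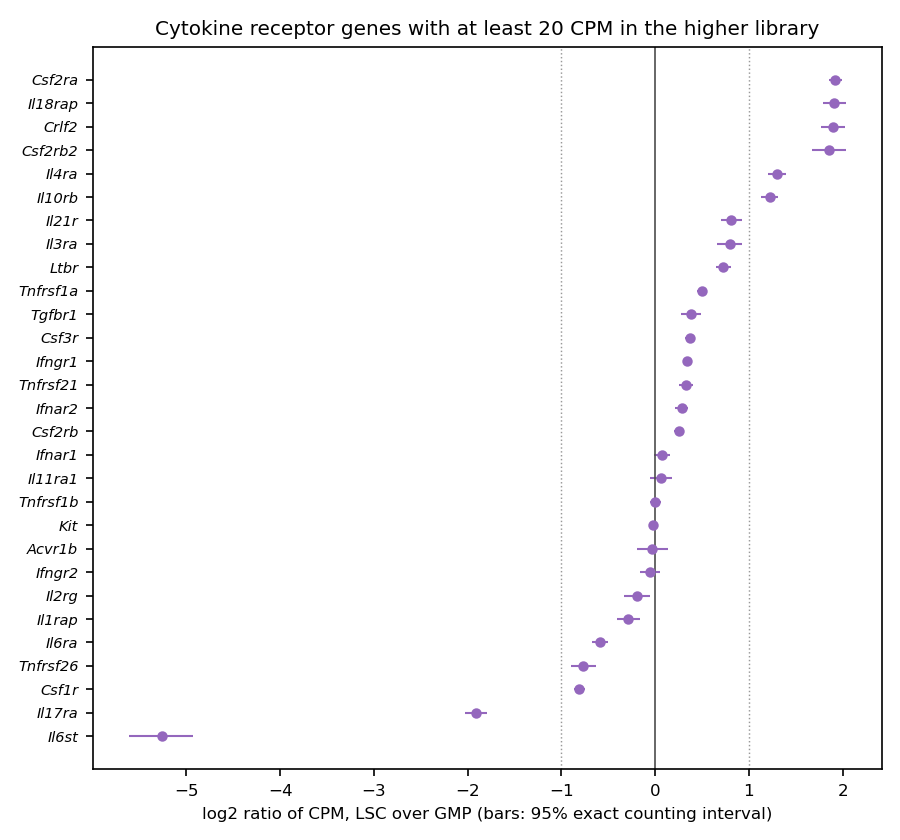
The x axis is the log2 ratio of CPM, LSC over GMP, for the 29 cytokine receptor genes considered, and bars are 95% exact counting intervals; dotted lines mark 2-fold. Of the 29 points, 21 lie within 2-fold, 6 lie to the right of it with Csf2ra at the top, and Il17ra and Il6st lie to the left.

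Feedback and response genes of such receptors were uneven, and signalling itself was not measured. Of 14 JAK-STAT feedback and interleukin 3 response genes considered, 6 were at least 2-fold higher and 3 lower. Ccnd2, a D-type cyclin, was at 3.45 CPM in LSC, 229.7 CPM in GMP and 207 and 209.5 CPM at 0 h, and Ccnd3, its relative, at 473, 134, 292 and 307 CPM. Bcl2l1, which encodes BCL-XL, was at 50.7 CPM in LSC, 17.3 CPM in GMP and 161 and 171 CPM at 0 h. Pim1, a kinase gene that interleukin 3 switches on, was at 17.1 and 31.3 CPM in LSC and GMP against 393 and 347 CPM at 0 h. Spred1, a brake on RAS signalling, was at 3.37 CPM in LSC against 40.1 CPM in GMP.

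Immediate-early genes, which respond within minutes to stimuli, were higher as a group. Of 27 considered, 23 were at least 2-fold higher in LSC and 1, Klf4, was lower, with a median of 2.17. Egr1 was at 26.3 CPM in LSC, 0.611 CPM in GMP and 13.1 and 7.57 CPM at 0 h. Dusp1, a phosphatase that switches off MAP kinases, was at 282, 11.8, 11.4 and 12.2 CPM, and Zfp36, which destabilises cytokine mRNA, at 425, 43.9, 34.4 and 22.7 CPM. Dusp1 and Zfp36 at 0 h were near or below GMP, and Egr1 at 0 h lay between. Tnf, the inflammatory cytokine gene, was at 133 CPM in LSC, 2.24 CPM in GMP and 1.71 and 4.29 CPM at 0 h. TGACGTCA, the CRE pattern that CREB binds, stood in 3 of 26 windows of the genes considered (11.5%) and in 1.79% of all windows. How the cells were collected is not given in the sources used here.

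Surface genes of phagocytes were higher in LSC in several families. Of 32 pattern and Fc receptors and C-type lectins considered, 13 were at least 2-fold higher and 3 lower, with a median of 0.57. Cd300lf and Fcgr4 were at 31.1 and 48.2 CPM in LSC and 0.448 and 4.24 CPM in GMP, and Tyrobp, the adaptor of many such receptors, had a ratio of 2.003 [1.96, 2.05]. Ticam2, an adaptor of TLR4, was lower, 4.45 against 51.6 CPM. Of 31 integrin and adhesion genes, 12 were higher and 4 lower. Itgam (CD11b) was at 822 CPM in LSC, 65.8 CPM in GMP and 678 and 593 CPM at 0 h, and its partner Itgb2 (CD18) at 500.1, 74.9, 301 and 336 CPM. Vcam1 was on in the single LSC library, 143 CPM against 56.2 CPM in GMP, and nearly absent at 0 h (0.503 and 0.678 CPM). Pecam1 (CD31) showed the reverse: 23.03 CPM in LSC, 104 CPM in GMP and 825 and 728 CPM at 0 h.

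Antigens used to mark or target myeloid leukemia did not share a direction. Of 31 surface antigens considered, 8 were at least 2-fold higher and 5 lower. Cd33 was at 280.3 CPM in LSC, 3.59 CPM in GMP and 52.9 and 33.4 CPM at 0 h (6.29 [5.99, 6.61]). Clec12a was at 1681, 779, 529.6 and 299.9 CPM. Cd27 was at 2.13 CPM in LSC against 32.3 CPM in GMP, and near 0 at 0 h, while Cd9, Cd47 and Cd44 had ratios of 0.63, 0.07 and 0.82. The chemokine receptor genes Cxcr4 and Ccr1 had ratios of 0.94 and 2.76.

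The phagocyte NADPH oxidase, which makes the oxidants of the respiratory burst, was higher in most of its parts in the single LSC library. All 9 genes were considered, 6 were at least 2-fold higher and none lower, with a median of 1.43. The membrane subunits Cybb and Cyba were at 439 and 461 CPM in LSC and 144 and 125 CPM in GMP. The cytosolic subunits Ncf1 and Ncf4 had ratios of 1.43 and 1.82, and the small GTPase Rac2 1.47. At 0 h Cybb was at 3.02 and 0.904 CPM, far below both LSC and GMP, while Cyba was at 349 and 325 CPM. The list's medians at 0 h, relative to the same GMP library, were 0.005 and -0.12. Ncf1 had 0 h ratios of 0.005 and -0.16, Ncf4 of -0.04 and -0.22, and Rac2 of 0.06 and -0.12. Of 51 lysosome genes 11 were at least 2-fold higher and 3 lower, with Sgsh at 2.10 and Ctss at -1.91.

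The 15 eicosanoid genes considered included 8 at least 2-fold higher and none lower, with a median of 1.07. These genes make and break down prostaglandins and leukotrienes. Ptgs1, encoding cyclooxygenase 1, was at 235 CPM in LSC, 52.3 CPM in GMP and 94.3 and 92.1 CPM at 0 h. Ptges, which makes prostaglandin E2, was at 22.8 and 0.897 CPM in LSC and GMP. Alox5ap, needed for leukotriene synthesis, had a ratio of 1.07 [1.03, 1.11]. Hpgd and the leukotriene receptor gene Ltb4r1 (1.75) were among the 8.

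Cell cycle genes mostly lay within 2-fold. Of 76 mitosis genes considered, 8 were at least 2-fold higher, near the 10.4% of all genes, and none lower, with a median of 0.53 that stayed above 0 under each scaling tried. Of 58 DNA replication genes, none was higher and 4 lower, near the 7.13% of all genes, with a median of -0.41, and of 33 recombination and Fanconi repair genes none passed 2-fold either way, with a median of -0.36. Cdc25b, which activates the mitotic kinase, was at 82.3 CPM in LSC, 25.8 CPM in GMP and 45.03 and 51.8 CPM at 0 h. Ube2c, which marks cyclins for destruction, was at 270.5, 111, 129.9 and 153 CPM. Orc1, of the origin recognition complex, was at 9.36 CPM in LSC against 26.5 CPM in GMP, and Pola1, a DNA polymerase subunit, at 69.6 and 165 CPM. In the 0 h libraries the median of the mitosis list relative to the same GMP library was -0.54 and -0.55, and that of the replication list -0.75 and -0.92.

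Mitosis genes are known for a pair of promoter elements, and most windows of this list held their letters. TTTGAA, the CHR pattern, stood in 44 of 62 windows of the mitosis genes considered (71.0%) and in 17.9% of all windows, and CCAAT in 46 of 62 (74.2%) against 37.4%. The share says nothing of why the genes differ. Ube2c is shown as its 250 bases before the start (GRCm38.p6, chr2:164769679-164769928, plus strand). It had the highest ratio among list genes whose 250 bases before the start, in their first listed window, hold TTTGAA. Both patterns on either strand are in capitals, with 1 CHR match and 6 CCAAT matches, 2 of which overlap.
Ube2c: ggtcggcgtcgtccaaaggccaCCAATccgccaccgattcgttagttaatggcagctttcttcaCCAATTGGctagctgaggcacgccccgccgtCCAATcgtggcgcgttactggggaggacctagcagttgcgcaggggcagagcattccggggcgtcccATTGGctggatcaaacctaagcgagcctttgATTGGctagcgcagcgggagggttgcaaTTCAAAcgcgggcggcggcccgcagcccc

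Of 28 CDK inhibitor, G1 cyclin and E2F genes considered, 5 were at least 2-fold higher and 2 lower. Cdkn1c (p57) was at 46.2 CPM in LSC against 0.367 CPM in GMP, with 0 counts at 0 h. Cdkn2c (p18) was at 284 CPM in LSC, 29.4 CPM in GMP and 112 and 139 CPM at 0 h, and Cdkn2d (p19) at 91.96, 17.3, 38.1 and 35.4 CPM. Cdk4 was lower (-0.78 [-0.82, -0.75]) and Cdk6 near equal. Of 24 BCL2 family genes, 3 were at least 2-fold higher, near the 10.4% of all genes, and Bcl2 was lower. Pmaip1 (NOXA), a killer protein and p53 target, was at 72.5 CPM in LSC, 3.38 CPM in GMP and 56.9 and 73.3 CPM at 0 h. Of 18 p53 targets 5 were higher and none lower, with a median of 0.19 that was -0.05 under TPM, and Trp53 itself had a ratio of -0.09.

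Genes of growth and biosynthesis were lower, by modest amounts in many genes. Of 60 nucleolar ribosome biogenesis genes, none was at least 2-fold higher and 14 were lower, with a median of -0.71. Pus7 (23.3 against 93.6 CPM), which modifies uridines in RNA, and Gnl3 (45.9 against 149 CPM), nucleostemin, differed most, and Npm1 was at 935 CPM in LSC against 1901 CPM in GMP. At 0 h the nucleolar list's medians relative to the same GMP library were -0.77 and -0.85. Cytosolic ribosomal protein genes stayed within 2-fold in 79 of 80, with a median of 0.18 that was -0.02 under TPM. Mitochondrial ribosomal protein genes (72, median -0.31), respiratory chain subunits (75, median -0.33) and proteasome genes (38, median -0.32) had 0 genes at least 2-fold higher and 2, 1 and 0 lower. Myc was at 180.3 CPM in LSC, 267 CPM in GMP and 364 and 403 CPM at 0 h, and its antagonist genes Mxi1 and Mxd1 were higher (1.76 and 1.29). CACGTG, the E-box that MYC binds, stood in 12 of 63 windows of the nucleolar genes (19.05%) and in 7.15% of all windows. A part of MYC in the levels of these genes was not tested.

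Synthesis of nucleotides and amino acids followed the same direction in the single LSC library. Of 41 polyamine, nucleotide and one-carbon genes, 2 were at least 2-fold higher and 13 lower, with a median of -0.64. Impdh1, of guanine nucleotide synthesis, was at 13.4 CPM in LSC, 216 CPM in GMP and 129.7 and 112 CPM at 0 h, and Cad, of pyrimidine synthesis, at 83.3, 273, 120.1 and 106 CPM. Of 41 tRNA synthetase and ATF4 amino acid genes, none was higher and 7 lower, with a median of -0.59. In the 0 h libraries, relative to the same GMP library, this list had medians of -0.01 and 0.04. The polyamine, nucleotide and one-carbon list had -0.80 and -0.86 there. Phgdh, the entry enzyme of serine synthesis, was at 6.5 CPM in LSC, 374 CPM in GMP and 175 and 174 CPM at 0 h. Psat1, the next enzyme, was at 73.005, 215, 297 and 338 CPM. Slc7a5, a carrier of large amino acids, was at 56.4 CPM in LSC against 186 CPM in GMP, while Atf4 had a ratio of 0.65.

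Chaperones were lower as well. Of 29 heat shock genes, 3 were at least 2-fold higher and 9 lower, with a median of -0.44. Hspd1, the mitochondrial chaperonin, was at 236 CPM in LSC against 753 CPM in GMP, and Hsp90ab1 at 2124 and 4413 CPM. The near-identical Hspa1a and Hspa1b were higher in LSC, at 27.5 and 49.4 against 5.14 and 6.81 CPM, and near 0 at 0 h. Of 35 endoplasmic reticulum chaperone and unfolded protein genes, 1 was higher and 7 lower, with a median of -0.45: Calr was at 1769.97 CPM in LSC against 4074 CPM in GMP, and Txndc5 at 30.4 and 195 CPM. Among 39 heme, iron and glutathione genes, Prdx1 (-2.12) and Prdx5 (1.92), peroxiredoxins of different compartments, had opposite signs.

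Energy and lipid genes were mixed between LSC and GMP. Of 36 glycolysis and hypoxia genes, 6 were at least 2-fold higher and 8 lower, with a median of 0.35, while the 0 h libraries had medians of 1.58 and 1.63 relative to the same GMP library. Gapdh was at 4082 CPM in LSC, 2666 CPM in GMP and 6775 and 6975 CPM at 0 h. Slc16a3, a lactate exporter, was at 113, 18.1, 382 and 392 CPM, and its relative Slc16a1 at 21.8, 139.98, 92.3 and 95.1 CPM. Of 27 sterol, fatty acid and LXR genes, 3 were higher, near the 10.4% of all genes, and 5 lower, against 7.13% of all genes. Elovl6, a fatty acid elongase, was at 1.97 CPM in LSC, 41.5 CPM in GMP and 48.04 and 69.04 CPM at 0 h.

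Interferon and antigen-presentation genes leaned lower. Of 24 interferon response genes, 3 were at least 2-fold higher and 7 lower, with a median of -0.41. Ifitm3, which blocks virus entry, was at 4.64 CPM in LSC, 43.1 CPM in GMP and 14.4 and 15.4 CPM at 0 h. Of 19 MHC class I and immunoproteasome genes, 1 was higher and 3 lower, with a median of -0.48. H2-K1 was at 327 CPM in LSC against 689 CPM in GMP, B2m at 664 and 1042 CPM, and Nlrc5, the transactivator of these genes, at 3.07 and 28.9 CPM. Reads of the H2 genes can be shared between copies and depend on the strain, which is not given.

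Genes of chromatin enzymes and complexes had medians near 0. The medians were 0.12 for 31 lysine acetyltransferase and BET reader genes, 0.04 for 15 deacetylases and sirtuins, 0.01 for 35 genes of the MLL complexes and fusion partners, -0.04 for 50 polycomb, DNA methylation and demethylase genes and 0.00 for 49 SWI/SNF and Mediator genes. Each of these medians was within the shift that library size or TPM scaling gave to all genes. Single members stood out: Hexim1, which holds the elongation factor P-TEFb inactive, was at 160.2 CPM in LSC against 35.99 CPM in GMP, with 79.4 and 91.3 CPM at 0 h. Kdm5b, a demethylase of histone H3 lysine 4, was at 12.9, 63.2, 112 and 139 CPM in LSC, GMP and the 0 h libraries, and Dnmt3b at 14.4, 42.6, 5.73 and 4.97 CPM. Aff2, a relative of the fusion partners, was at 24.6 CPM in LSC against 1.51 CPM in GMP and had 0 counts at 0 h. Of 9 histone genes considered, 2 were at least 2-fold higher, 6 within 2-fold and 1 lower, with a median of 0.65 (0.43 under TPM). Their medians at 0 h, relative to the same GMP library, were 0.20 and 0.09. The lower gene was H2afy, at 670 CPM in LSC, 1413 CPM in GMP and 561 and 466 CPM at 0 h. H1f0, the linker histone of slowly dividing cells, was at 195 CPM in LSC against 35.95 CPM in GMP, with 197 and 268 CPM at 0 h.

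**Figure D4:**
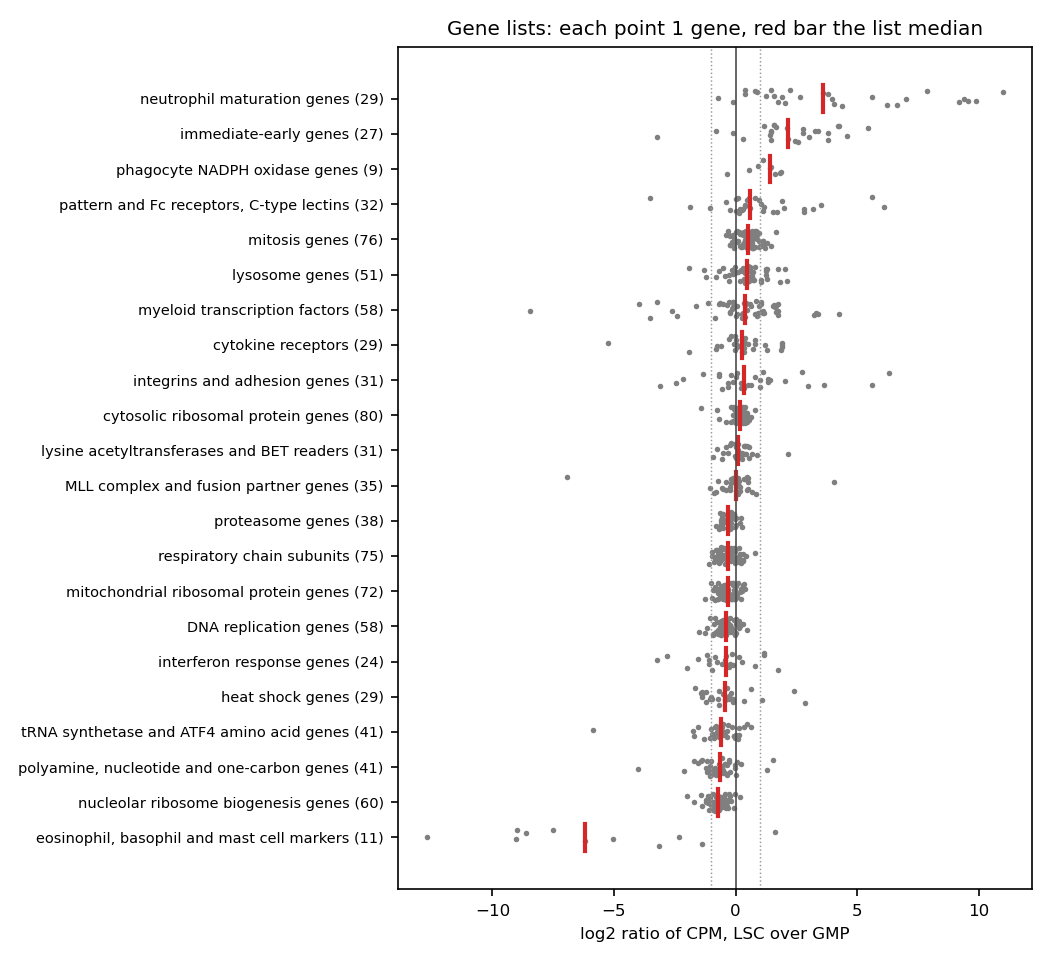
The x axis is the log2 ratio of CPM, LSC over GMP; each row is a gene list with its number of genes considered, each grey point is 1 gene and each red bar the list's median. Neutrophil maturation (median 3.59) and immediate-early genes (2.17) lie to the right, eosinophil, basophil and mast cell markers (-6.19) to the left, and most lists of growth and chromatin genes within 2-fold of 0.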

How the data were processed

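The authors aligned and counted reads with STAR and RSEM on build mm9, per the submitters' processing notes; not given in the sources used here are versions, settings and strandedness. The deposited expected counts, named so per the file headers, are estimates of the reads of a gene before any scaling, and the deposited TPM are scaled for transcript length and depth within a library. The deposited effective length per gene was used only for a check of length.

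Expected counts of the LSC, GMP and both 0 h libraries were rounded to whole numbers and scaled with TMM (edgeR 4.0.16 in R 4.3.3, GMP as reference, factors 0.916 for LSC and 1.02 for each 0 h library). Log2 ratios carry no prior count. Counts of 0 were set to a floor of 3 counts in that library, and such a fold is named as taken at the floor. It is not a bound of the interval. Intervals are 95% exact (Clopper-Pearson) binomial intervals, with scipy 1.17.1, and had a median width of 0.10 on the log2 scale to either side; PCR duplicates are not independent molecules. No test and no p-value was computed. The 0 h libraries share the GMP library with the LSC comparison, so their values are only set beside it. The steps were tested on simulated data.

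The members, the 58 gene lists and the settings were chosen with earlier results of these data known. Genes were named by a rule: 32 fixed genes; the 15 highest and the 15 lowest ratios; the 10 most abundant by TPM in each library; for each list up to 4 members with the largest ratio and the 2 most abundant, and from the transcription factors up to 8 in each direction. Named after their values were seen were Alox5ap, Anxa1, Ass1, Bahcc1, C130026I21Rik, Camp, Cd44, Cd47, Cnn3, Cpa3, Csf2rb, Csf2rb2, Dsp, Greb1, Hoxa11, Hoxa4, Hoxa6, Igf2bp3, Itgb2, Lcn2, Ltf, Mmp9, Nedd4, Ngp, Olfml2b, Padi4, Pim1, Siglecf, Slc13a5, Tnf and the neighbours of Mllt10, Zcchc11, Ifi203 and Hoxa9. Promoters and gene order came from RefSeq on GRCm38.p6, with which no mm9 coordinate was mixed. The mAML library and the drug-treated libraries were not used here.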

Additional observations from a re-analysis of the deposited data

How the results depend on the processing

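No library can be left out, since each group has 1, and differences between animals, cultures, sexes and preparations cannot be told apart from leukemia. No paired analysis was possible because each group has a single library and no replicate numbers. Among genes of 50 CPM or more in either library, LSC was at least 4-fold higher for 162, 4-fold lower for 67 and 2-fold lower for 296. With 10 CPM or more, 279 were at least 4-fold lower. With at least 10 counts over both libraries, 1934 were at least 2-fold higher, 1744 at least 2-fold lower, 827 at least 4-fold higher and 948 lower by that much; these filters differ in the number of genes they admit. Under the deposited TPM, 866 were at least 2-fold lower. The other counts stayed within 1.5 times under library size, DESeq2 1.42.0 size factors, a prior count of 5, the interval bound past the fold, and removal of the transcript length trend. The median of the imprinted genes turned to -0.11 with at least 10 counts over both libraries. Of 54 lists with at least 3 genes, 18 changed the sign of their median under at least 1 of the 9 alternatives, among them the stem and progenitor, primary granule, monocyte, dendritic, sterol, p53 and chromatin lists. None of the 215 named genes at least 2-fold apart changed direction under the 5 alternatives that alter a single ratio, and 14 of 334 named genes did, the largest with a ratio of 0.18.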

Other observations

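A few further lists and places showed values not described above. Of 33 autophagy genes considered, 4 were at least 2-fold higher in LSC than in GMP and 2 lower, near the 10.4% and 7.13% of all genes. Wipi1, a phosphoinositide-binding protein of early autophagosomes, was at 65.2 CPM in LSC against 13.4 CPM in GMP. Of 19 WNT, NOTCH and TGF-beta genes, Notch1 was higher (1.11 [1.03, 1.18]) and Smad3 and Bmpr2 were lower (-1.50 and -1.10). Of 5 imprinted genes considered, 3 were at least 2-fold higher: Cdkn1c, Igf2r (22.9 CPM in LSC, 3.71 CPM in GMP, 0.201 and 0.226 CPM at 0 h) and Peg13 (52.1, 21.2, 44.7 and 54.1 CPM). The nuclear RNA Malat1 was at 129 CPM in LSC, 46.02 CPM in GMP and 261 and 266 CPM at 0 h.

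Neighbouring genes of the interferon-inducible Ifi200 family, whose products sense DNA, were low in all 3 leukemic libraries. Ifi203 was at 1.02 CPM in LSC against 52.5 CPM in GMP, with 0 and 0.113 CPM at 0 h. Pyhin1 was at 9.17 CPM in LSC against 156 CPM in GMP, Mndal at 4.67 and 53.4 CPM, Mnda at 0.216 and 14.6 CPM and Ifi204 at 0.324 and 4.65 CPM, and none passed 0.339 CPM at 0 h. The family was looked at after the value of Ifi203 was seen. Its members are close copies in tandem whose reads can be shared and which vary between mouse strains, and the strain was not given.

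Over chromosomes, genes of chromosome 7 had the highest median ratio (0.27 over 575 genes) and those of chromosome 16 the lowest among autosomes (-0.12 over 256 genes).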
